A study of Rattus norvegicus with 7 samples.

Results

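Heart muscle cells transfected with miR-199a-3p were set against the same kind of cells transfected with cel-miR-67, a nematode microRNA (miRNA) which stands as the control here since it is the denominator of the ratios that the authors deposited. The genes described are all those with a mean of at least 1 RPKM (reads per unit of gene length, scaled to the size of the library) over the 7 libraries of the study, which were 12330 of the 17141 genes listed, 11311 of them protein-coding. The stress genes among them are followed in most detail, beside the other 5 transfected miRNAs. Those were miR-590-3p and miR-1825, then miR-373-3p with miR-302d-3p, and miR-33b*. All 7 cultures were ventricular cardiomyocytes of wild-type Wistar rats at postnatal day 0. The dose was 25 nM in each culture, and RNA was collected 72 h after transfection. The atria had been removed, and the cells used were those that did not settle during a first plating on plastic, a step that removes part of the other cells. There was 1 library per miRNA, so no difference has a replicate check, no p-value is given, and "higher" and "lower" describe these libraries only. A change is log2 of (RPKM + 1) in a miRNA library over (RPKM + 1) in the cel-miR-67 library, which understates the change of low genes. The read rates of both libraries also give a ratio, shown with its 95% interval by the exact Clopper-Pearson method, which covers counting error only.

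A miRNA is a short RNA that guides an Argonaute protein to messenger RNAs, usually through pairing of its seed with sites in their 3′ untranslated regions, and lowers their level or translation. Cardiomyocytes under mechanical or hormonal stress switch on natriuretic peptide and other fetal genes, and cells that detect foreign RNA or interferon switch on antiviral genes. Synthetic RNA was transfected into all 7 cultures. The mature miRNA is shown because its seed, in capitals, defines the sites that it can pair with.

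rno-miR-199a-3p: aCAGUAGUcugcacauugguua

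The sequence is that of the rat miRNA in RefSeq, from the Mir199a2 gene at chr13:77116294-77116315 on the plus strand of GRCr8. Its seed, bases 2 to 8, pairs with ACUACUG, and 0 of the other mature rat sequences among 692 in the table carry the same seed. Sites in transcripts were not searched here.

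The libraries held 23144651 reads in listed genes for miR-199a-3p, between 22616067 and 31963293 for the other 5 miRNAs, and 24836246 for cel-miR-67. Genes of the mitochondrial genome took 27.7% of these reads after miR-199a-3p, 30.6% to 41.4% after the other 5, and 41.01% after cel-miR-67. The library sizes behind the RPKM, recovered from the values, were not these sums: listed reads came to 85.5% of the size for miR-199a-3p, 92.1% to 108.4% for the other 5 and 109.5% for cel-miR-67, for a reason not given in the sources used here. Scaling to listed reads instead would raise every read-rate ratio by 0.357 on the log2 scale. The deposited scaling left the median change of all measured genes at -0.002. Scaling to the total of listed reads would put it at 0.30, and scaling to the listed reads outside the mitochondrial genome at 0.05. Values scaled to total reads are therefore given beside the lists whose sign turns, and are to be read against the 0.30. Ranges of the other 5 are as deposited. Relative to all genes when scaled to total reads, antigen presentation genes were at -0.31 and small heat shock protein genes at -0.30. Unfolded protein response genes were at -0.19 and genes induced by p53 at -0.16 in the same terms. Integrated stress response genes were at 0.04, and glucose uptake and glycolysis genes at 0.02. The 10 cardiomyocyte markers summed to 9889 RPKM after miR-199a-3p, 10692 to 12805 RPKM after the other 5 and 13254 RPKM after cel-miR-67, and all 10 were measured. Myl2 alone gave 4768 RPKM of the miR-199a-3p sum, and over the 10 markers the median change of -0.32 lay inside the range of the other 5 (-0.50 to -0.28) and was 0.03 when scaled to total reads, with 1 marker lowest of the 7. Endothelial markers summed to 16.2, 14.3 to 17.9 and 23.1 RPKM in the same order, with Cldn5 at 0 in cel-miR-67. Macrophage and leukocyte markers summed to 26.6, 22.2 to 30.3 and 29.9 RPKM. In bulk RNA, fewer cells of a type and less RNA per cell cannot be told apart.

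After miR-199a-3p 128 genes were at least 2-fold higher and 188 at least 2-fold lower than after cel-miR-67, which is 1.04% and 1.52% of the 12330 genes. Protein-coding genes made up 75 of the higher and 128 of the lower ones. The 1.5-fold limit was passed by 593 genes upward (4.81%) and 684 downward (5.55%). At the edges of the 2-fold limits stood Kif22 (change 1.00, inside) and AABR07012583.4 (0.999, outside), then Zhx2 (-1.0004, inside) and AABR07046778.1 (-0.996, outside). The edge of the mean limit ran between Sh3rf1 at 1.00 RPKM and Klhdc7a at 0.999 RPKM. Set against all 6 other libraries at once, 134 genes (1.09%) were at least 1.5-fold lower after miR-199a-3p and 49 (0.397%) at least 1.5-fold higher. The same counts ran from 17 to 98 and from 6 to 46 for the other 5 miRNAs, and were 72 and 26 for cel-miR-67.

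**Figure D1:**
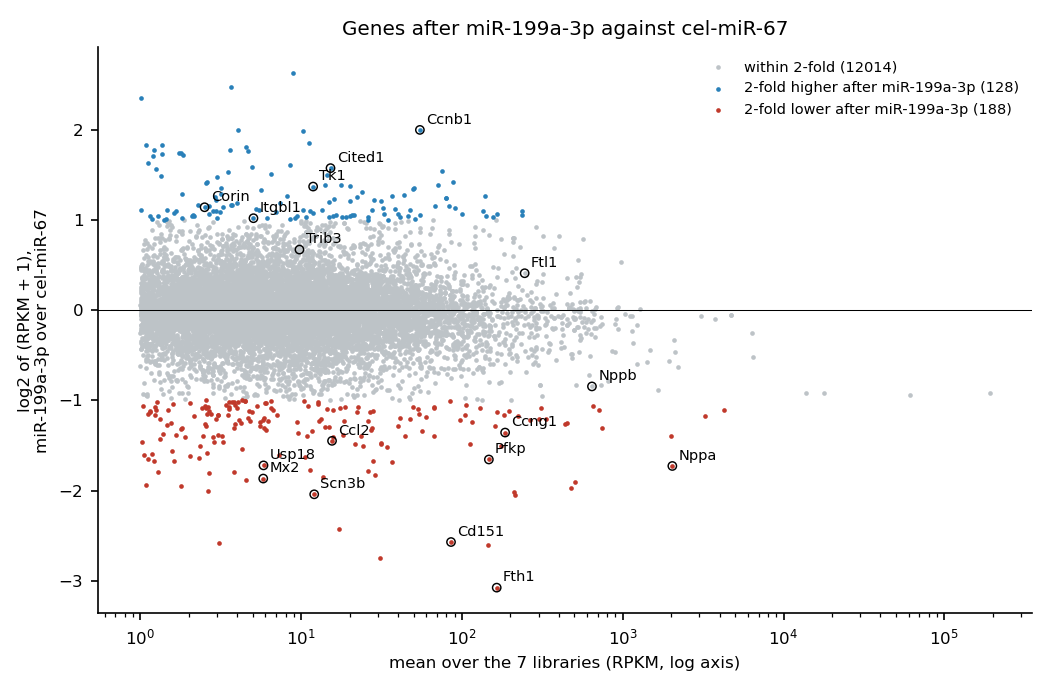
Each point is 1 of 12330 genes, with its mean RPKM over the 7 libraries on a log axis and its log2 change, miR-199a-3p over cel-miR-67, on the other. Fth1 (-3.08), Cd151 (-2.57) and Nppa (-1.73) stand far below genes of like expression, while Ccnb1 is highest of the labelled genes at 2.00.

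Ferritin heavy chain was the gene farthest below all other libraries. Fth1, the ferroxidase subunit of the iron storage protein, stood at 22.3 RPKM after miR-199a-3p, at 178 RPKM with miR-590-3p, 179 with miR-373-3p, 178 with miR-302d-3p, 222 with miR-33b* and 177 with miR-1825, and at 195 RPKM after cel-miR-67. The other 6 libraries lay within a narrow band and the miR-199a-3p library lay well outside it. Its change was -3.08, with a ratio of read rates of 0.114 (0.104 to 0.125, from 500 and 3678 reads). Best1, a chloride channel gene, had a change of -2.75, but its values ran in nearly fixed proportion to those of Fth1 across the 7 libraries. Its read numbers, 557 after miR-199a-3p and 3724 after cel-miR-67, were also close to those of Fth1. The genes lie within 10 kb of each other in GRCr8. The same reads may thus be counted in both rows, and the change of Best1 is not taken as separate from that of Fth1.

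Other iron genes differed in direction. Ftl1, the light chain that partners Fth1 in the ferritin shell, was at 291 RPKM after miR-199a-3p, 204 to 297 RPKM after the other 5 and 219 RPKM after cel-miR-67, a change of 0.41 (ratio 1.33, 1.27 to 1.40). The transferrin receptor gene Tfrc, which imports iron, was at 49.8 RPKM after miR-199a-3p, 85.6 to 142 RPKM after the other 5 and 78.5 RPKM after cel-miR-67. All 5 other miRNAs lay above cel-miR-67 for Tfrc and miR-199a-3p lay below it (change -0.65, ratio 0.635, 0.614 to 0.656). Hamp, which encodes the iron hormone hepcidin, had 1 read after miR-199a-3p and 23 reads after cel-miR-67, a ratio of 0.0364 with an interval of 0.000885 to 0.224. Of the 10 measured metallothionein, ferritin and iron genes 7 were at their lowest of the 7 libraries after miR-199a-3p, against 18.0% of all measured genes. Scaled to total reads this was 4 of 11 genes against 5.06% of all genes. Their median change was -0.22, and 0.06 when scaled to total reads. Hamp and Mt1 were among the 7 from few reads, Mt1 with 15 reads after miR-199a-3p and 18 after miR-373-3p.

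The natriuretic peptide genes were lower after miR-199a-3p than after any other miRNA. Nppa, which encodes atrial natriuretic peptide, stood at 561 RPKM after miR-199a-3p, at 3098 RPKM with miR-590-3p, 2074 with miR-373-3p, 1649 with miR-302d-3p, 1948 with miR-33b* and 3054 with miR-1825, and at 1860 RPKM after cel-miR-67. The other 5 miRNA libraries lay on both sides of cel-miR-67, with changes of -0.17 to 0.74, and miR-199a-3p lay far below all of them at -1.73 (ratio 0.302, 0.296 to 0.308). Nppb, the gene of brain natriuretic peptide, stood at 354 RPKM after miR-199a-3p, at 913 RPKM with miR-590-3p, 673 with miR-373-3p, 635 with miR-302d-3p, 500 with miR-33b* and 795 with miR-1825, and at 636 RPKM after cel-miR-67. It was again lowest after miR-199a-3p, with a change of -0.85 (ratio 0.556, 0.539 to 0.574) against -0.35 to 0.52 after the other 5.

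The protease that activates the peptide went the opposite way. Corin, which cuts the precursor of atrial natriuretic peptide, was at 6.91 RPKM after miR-199a-3p, at 1.16 RPKM with miR-590-3p, 2.78 with miR-373-3p, 2.00 with miR-302d-3p, 1.59 with miR-33b* and 0.55 with miR-1825, and at 2.58 RPKM after cel-miR-67. The miR-199a-3p library was the highest of the 7, and its ratio to cel-miR-67 was 2.68 (2.29 to 3.13, from 693 and 217 reads). The peptide clearance receptor gene Npr3 was also highest of the 7, at 6.48 RPKM, against 2.92 to 4.36 RPKM after the other 5 and 6.39 RPKM after cel-miR-67, although its change was only 0.02. Mme, the membrane protease neprilysin that degrades these peptides, was at 2.79, 1.25 to 4.41 and 5.77 RPKM in the same order (change -0.84).

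Other fetal and stress genes of cardiomyocytes were lower with them. Csrp3, the muscle LIM protein of the Z-disc, was at 189 RPKM after miR-199a-3p, 262 to 327 RPKM after the other 5 and 437 RPKM after cel-miR-67 (change -1.21). Myh7, the slow myosin heavy chain of the fetal programme in rodents, was at 809 RPKM, 926 to 1728 RPKM and 1226 RPKM in that order (-0.60). Gdf15, a secreted stress cytokine, was at 2.63, 3.32 to 6.57 and 4.59 RPKM (-0.62). Xirp2, an actin-binding protein of cell junctions, and Ankrd1, a titin-associated nuclear protein, had changes of -1.48 and -0.88, but both lay inside the range of the other 5 (-2.78 to -0.24 and -1.39 to -0.43). Of the 14 measured genes of this list 11 were below 0, against 6207 of all 12330. At least 2-fold lower were 3, against 1.52% of all genes, and 6 were lowest of the 7 libraries, against 18.0%. Their median was -0.44 after miR-199a-3p and -0.22 to -0.04 after the other 5, where the median of all genes was -0.002. Scaled to total reads it was -0.09, which is -0.39 relative to all genes.

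**Figure D2:**
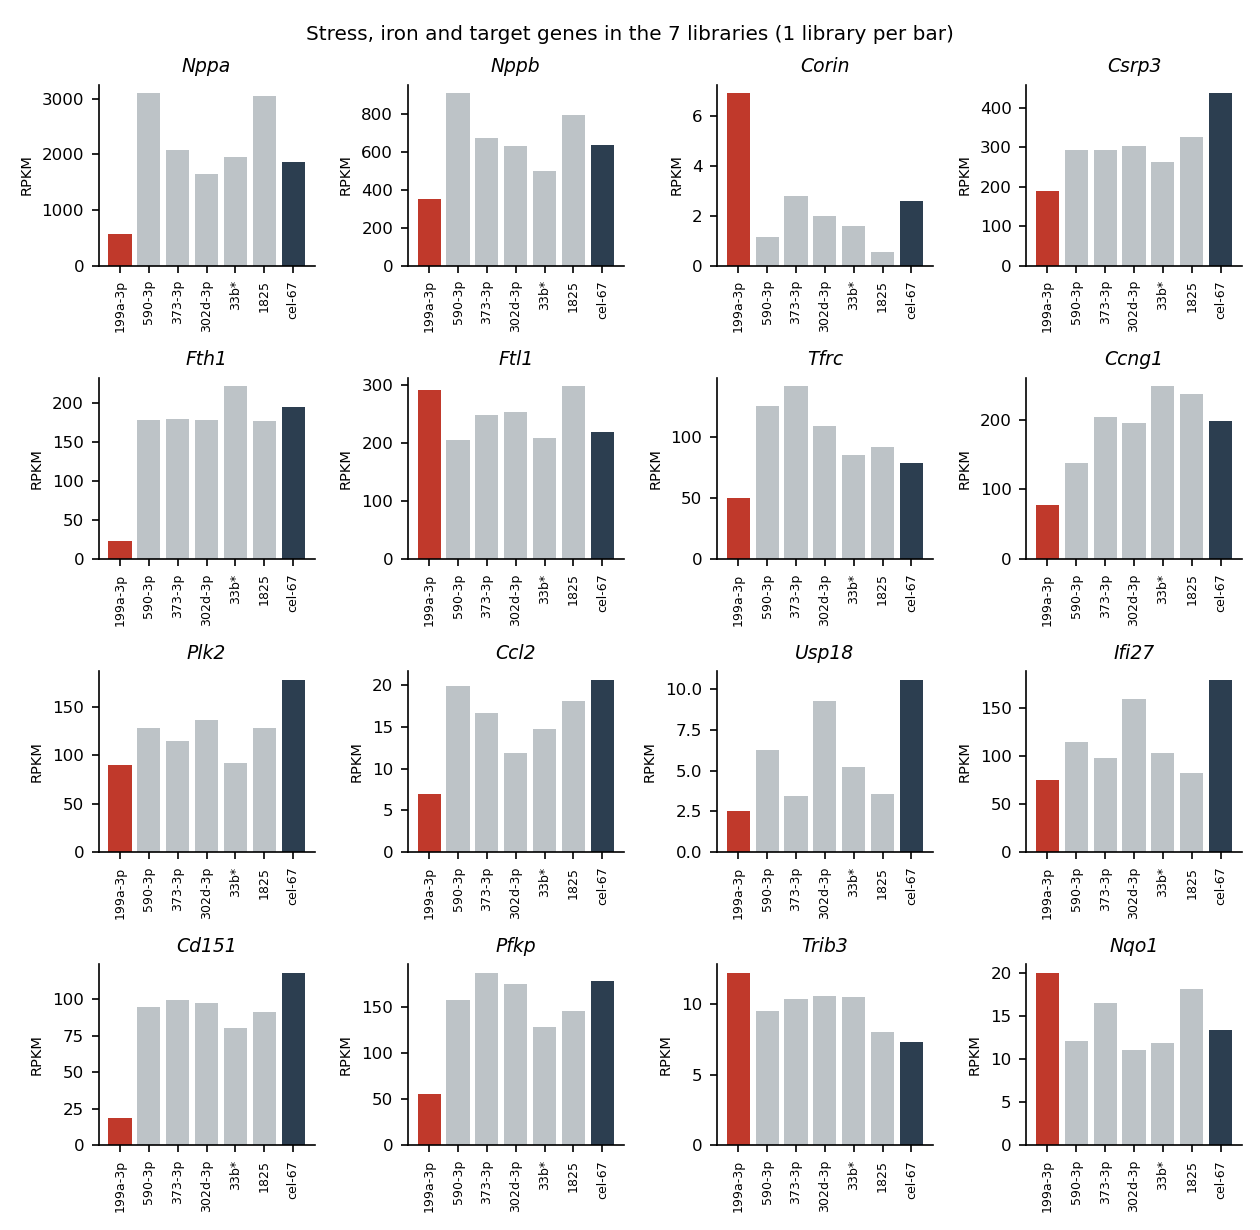
RPKM of 16 genes in each of the 7 libraries, with miR-199a-3p in red, the other 5 miRNAs in grey and cel-miR-67 in dark blue, 1 library per bar and a scale per gene. Nppa, Nppb, Fth1, Tfrc, Ccng1, Ccl2, Cd151 and Pfkp are lowest in the red bar, and Corin, Trib3 and Nqo1 are highest in it.

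Interferon-induced antiviral genes were the stress list with the lowest median. Of 34 genes listed 33 were matched and 18 reached the mean of 1 RPKM. Of these 18, 17 were below 0 after miR-199a-3p. At least 1.5-fold lower were 15, against 5.55% of all measured genes, and 8 were at least 2-fold lower, against 1.52%. The number at least 2-fold lower was between 0 and 4 after each of the other 5 miRNAs, where the share of all genes was 0.762% with miR-590-3p, 1.87% with miR-373-3p, 2.11% with miR-302d-3p, 1.24% with miR-33b* and 1.63% with miR-1825. Their median change was -0.94 after miR-199a-3p and between -0.68 and -0.14 after the other 5. Of the 18, 11 were lowest of the 7 libraries after miR-199a-3p, against 18.0% of all measured genes. Scaled to total reads 9 of 20 were lowest, against 5.06% of all genes, and the median was -0.54. Of the 15 matched genes below 1 RPKM, 13 had a lower RPKM after miR-199a-3p than after cel-miR-67. Summed over all 33 genes the list came to 163 RPKM after miR-199a-3p, 207 to 331 RPKM after the other 5 and 372 RPKM after cel-miR-67. Macrophage and leukocyte markers, given above, were also lower than after cel-miR-67, and their part in these values was not tested.

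Usp18, which trims the ubiquitin-like protein ISG15 from its targets and damps the interferon receptor, stood at 2.51 RPKM after miR-199a-3p, at 6.27 RPKM with miR-590-3p, 3.47 with miR-373-3p, 9.25 with miR-302d-3p, 5.19 with miR-33b* and 3.56 with miR-1825, and at 10.6 RPKM after cel-miR-67. The miR-199a-3p value was the lowest, with miR-373-3p next to it and then miR-1825. The change was -1.72 (ratio 0.237, 0.192 to 0.292, from 119 and 420 reads). Mx2, an antiviral GTPase, stood at 1.74 RPKM after miR-199a-3p, at 5.59 RPKM with miR-590-3p, 3.79 with miR-373-3p, 9.81 with miR-302d-3p, 6.61 with miR-33b* and 4.16 with miR-1825, and at 8.98 RPKM after cel-miR-67. All other libraries were more than 2 RPKM above miR-199a-3p, whose change was -1.87 (ratio 0.193, 0.163 to 0.228).

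Ifi27, a mitochondrial membrane protein and the antiviral gene with the highest level here, was at 75.5 RPKM after miR-199a-3p, 82.2 to 160 RPKM after the other 5 and 180 RPKM after cel-miR-67 (change -1.24). Lgals3bp, a secreted glycoprotein, was at 28.8, 40.8 to 59.7 and 68.0 RPKM in the same order (-1.21). Ifit1, which binds foreign RNA ends, was at 0.82, 1.77 to 3.51 and 4.46 RPKM (-1.58, from 46 and 209 reads), and Ifi44 at 2.55, 4.51 to 8.47 and 7.62 RPKM (-1.28). These 4 genes were lowest of the 7 after miR-199a-3p, as were Gbp2 and Isg15, which complete the 8 that were at least 2-fold lower. The 1 measured member above 0 was the exonuclease gene Isg20, at 0.08.

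Upstream genes gave a mixed picture. Of 6 measured RNA sensing genes 5 were below 0, with Oas1a, an oligoadenylate synthetase, at -1.07 (36 and 136 reads) and Ddx58, the gene of the sensor RIG-I, at -0.72. Their median was -0.42 after miR-199a-3p and -0.24 to -0.01 after the other 5, and -0.11 when scaled to total reads. Irf7, a transcription factor that is itself induced by interferon, was at 4.20 RPKM after miR-199a-3p, 2.46 to 7.95 RPKM after the other 5 and 11.1 RPKM after cel-miR-67. Its change of -1.22 lay inside the range of the other 5, which was -1.80 to -0.43. Ifnar2, a chain of the interferon receptor, was highest of the 7 after miR-199a-3p at 13.6 RPKM, against 8.56 to 12.5 RPKM after the other 5 and 11.8 RPKM after cel-miR-67. Ifnar1, the other chain, was instead lowest of the 7, at 9.31, 10.4 to 12.1 and 11.6 RPKM in the same order (-0.29). Stat2 (-0.52) was lowest as well. Of 12 measured interferon transcription factors and receptors 8 were below 0 and 4 above. Their median was -0.14, inside the range of the other 5 (-0.28 to -0.05), and 0.15 when scaled to total reads. Antigen presentation genes were below 0 in 11 of 11 cases, with a median of -0.32, inside the range of the other 5 (-0.33 to -0.20), and of -0.007 when scaled to total reads.

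**Figure D3:**
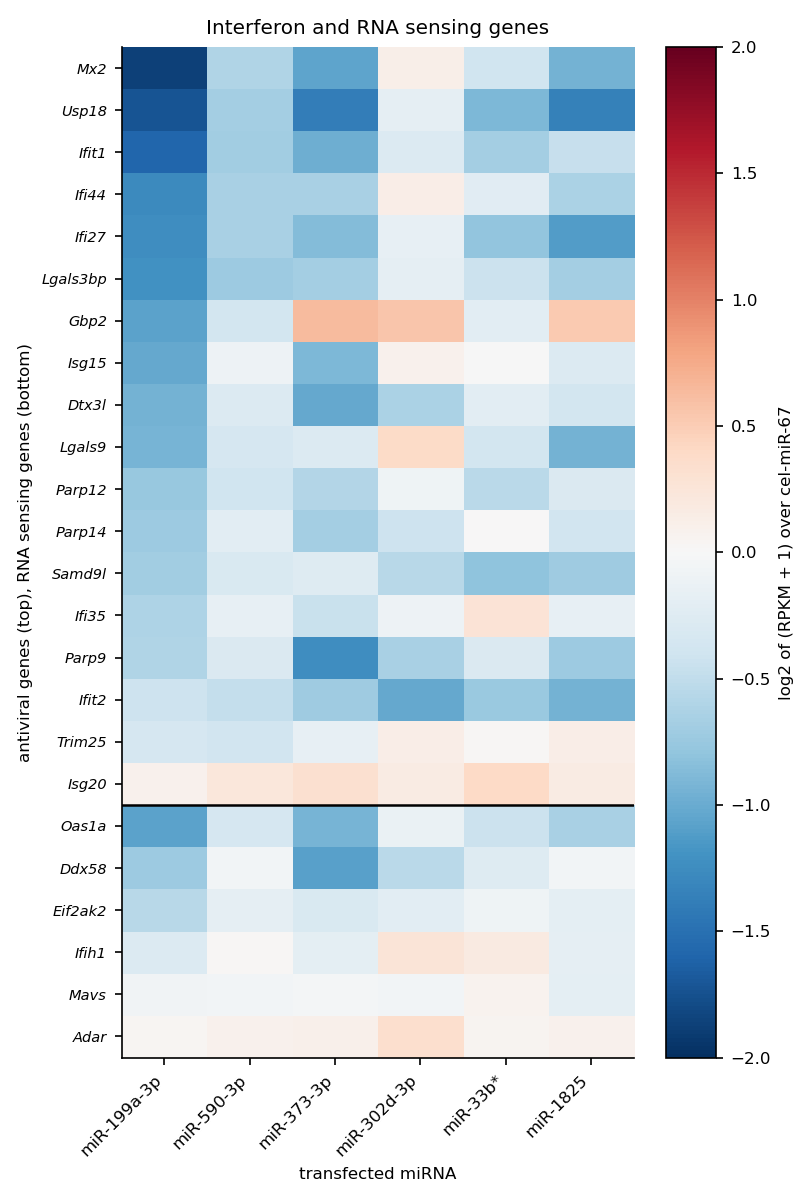
Log2 change against cel-miR-67 (colour, blue lower and red higher) of 18 antiviral genes (top) and 6 RNA sensing genes (bottom), with miR-199a-3p in the left column and the other 5 miRNAs to its right. The top rows are darkest blue for miR-199a-3p, as for Mx2 (-1.87) and Usp18 (-1.72).

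The interferon-stimulated response element is a promoter site known from interferon-induced genes. Its core, GAAA then any 2 bases then GAAA, was searched on both strands, where the other strand reads TTTC, any 2 bases, TTTC, in RefSeq promoter windows of GRCr8 from 250 bases before to 50 bases after the gene start. A match was present in 3.92% of all 33469 windows. Among measured genes it was present in 9 of 12 windows of antiviral, 3 of 4 of RNA sensing and 6 of 10 of antigen presentation genes. It was present in 1 of 9 windows of interferon transcription factors and receptors, and in 2 of 13 of NF-kB and inflammation genes. The median change of antigen presentation genes, given above, lay inside the range of the other 5 miRNAs. Only 12 of the 18 measured antiviral genes had exactly 1 window under their symbol and were assessed. Mx2, Usp18, Ifit1 and Isg15 were not among these 12, so whether they have a match is not given here. The 100 bases before the start are shown for the 4 assessed antiviral genes that were at least 2-fold lower after miR-199a-3p and have a match. The match is in capitals.

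Ifi44, chr2:243303841-243303940, minus strand: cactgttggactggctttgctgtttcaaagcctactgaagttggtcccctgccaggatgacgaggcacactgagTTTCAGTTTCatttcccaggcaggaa

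Ifi27, chr6:128355212-128355311, plus strand: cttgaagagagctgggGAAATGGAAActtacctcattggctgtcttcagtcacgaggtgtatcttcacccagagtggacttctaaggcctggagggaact

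Lgals3bp, chr10:104127849-104127948, minus strand: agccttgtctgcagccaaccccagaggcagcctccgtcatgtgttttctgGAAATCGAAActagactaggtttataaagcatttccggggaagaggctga

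Gbp2, chr2:234005627-234005726, plus strand: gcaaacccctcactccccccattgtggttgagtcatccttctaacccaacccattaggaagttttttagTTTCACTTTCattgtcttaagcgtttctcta

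Among measured protein-coding genes with 1 window each, 10 of 208 with a match (4.81%) and 61 of 7295 without one (0.836%) were at least 2-fold lower after miR-199a-3p. Of the 10, 6 were members of the interferon and RNA sensing lists, and the other 4 were Chmp5, Plbd1, Serpinb2 and Trim21. The median change of the 208 genes was -0.08 after miR-199a-3p and -0.08 to -0.01 after the other 5, so most genes with the letters differed little. Matches describe the sequence and show no binding.

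Chemokine genes were lower after miR-199a-3p, most of them from few reads. Ccl2, which attracts monocytes, stood at 6.95 RPKM after miR-199a-3p, at 19.9 RPKM with miR-590-3p, 16.6 with miR-373-3p, 11.9 with miR-302d-3p, 14.7 with miR-33b* and 18.1 with miR-1825, and at 20.7 RPKM after cel-miR-67. The miR-199a-3p library was lowest by a wide margin (change -1.45, ratio 0.336, 0.277 to 0.405). Ccl7, of the same chemokine family, was at 0.74 RPKM after miR-199a-3p, 3.41 to 6.33 RPKM after the other 5 and 2.59 RPKM after cel-miR-67. The other 5 miRNAs lay above cel-miR-67 and miR-199a-3p below it, with 17 and 50 reads and a ratio of 0.285 (0.154 to 0.503). Cxcl1, a neutrophil chemokine, was at 0.40, 0.96 to 2.39 and 2.33 RPKM (ratio 0.171, 0.0772 to 0.342). Lcn2, a protein that binds bacterial iron carriers, was at 0.83, 0.97 to 3.63 and 4.22 RPKM (ratio 0.197, 0.115 to 0.324). These 4 were the members at least 2-fold lower among 16 measured NF-kB and inflammation genes, against 1.52% of all measured genes. All 16 were below 0. The list median of -0.30 lay inside the range of the other 5 (-0.40 to -0.03), and was -0.04 when scaled to total reads. With a mean of at least 5 RPKM required, 1 member was lowest of the 7. At the limit of 1 RPKM 6 of 16 were, against 18.0% of all measured genes.

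Some genes induced by p53 were lower after miR-199a-3p, and others were near cel-miR-67. Ccng1, the atypical cyclin gene that p53 switches on, stood at 76.9 RPKM after miR-199a-3p, at 138 RPKM with miR-590-3p, 204 with miR-373-3p, 196 with miR-302d-3p, 248 with miR-33b* and 237 with miR-1825, and at 198.7 RPKM after cel-miR-67. It was lowest after miR-199a-3p, with miR-590-3p the next lowest (change -1.36, ratio 0.387, 0.377 to 0.397). Plk2, a polo-like kinase, was at 89.7, 92.3 to 137 and 178 RPKM in the usual order (-0.98), and the miR-33b* library lay close to miR-199a-3p. Gadd45a, a growth arrest gene, was at 15.4, 18.6 to 30.8 and 30.4 RPKM (-0.94). Rrm2b, the ribonucleotide reductase subunit used in DNA repair, was at 2.53, 3.65 to 7.28 and 5.74 RPKM (-0.93). Btg2, an antiproliferative gene, was at 20.0, 23.8 to 35.1 and 34.05 RPKM (-0.74). These 5 of 19 measured members were at least 1.5-fold lower, against 5.55% of all measured genes. Lowest of the 7 were 8 of 19, against 18.0% of all genes. Scaled to total reads this was 4 of 19 against 5.06%. The classical targets Cdkn1a and Bax, named after their values were seen, stood at 0.09 and 0.19. The list median was -0.14, inside the range of the other 5 (-0.17 to 0.20), and 0.14 when scaled to total reads. Perp, a membrane gene known as a p53 target but not in the list, was among the 10 farthest below all other libraries, at 8.22 RPKM after miR-199a-3p, 22.1 to 33.2 RPKM after the other 5 and 23.3 RPKM after cel-miR-67.

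Other stress programmes held members in both directions or lay within the range of the other miRNAs. Of 20 unfolded protein response genes 18 were below 0, with a median of -0.23, inside the range of the other 5 (-0.49 to 0.08), and 0.11 when scaled to total reads. The endoplasmic reticulum chaperone gene Hyou1 was at -1.10 and Herpud1, of protein degradation at that membrane, at -0.72, yet both lay above their values after miR-33b* (for Hyou1, 30.0 RPKM after miR-199a-3p and 26.2 RPKM after miR-33b*). Integrated stress response genes had a median of -0.01, and 0.34 when scaled to total reads, and 8 of 19 were highest of the 7 libraries, against 16.6% of all measured genes. Among them Trib3, a pseudokinase induced by ATF4, was at 12.2 RPKM after miR-199a-3p, 8.02 to 10.6 RPKM after the other 5 and 7.27 RPKM after cel-miR-67 (change 0.67). Aldh1l2, a mitochondrial folate enzyme, was at 17.0, 9.93 to 14.1 and 12.4 RPKM (0.43), and the cystine carrier gene Slc7a11 at 3.50, 2.32 to 2.92 and 2.40 RPKM (0.40). Atf3 (-0.53), Ddit4 (-0.48, from 50 and 74 reads) and Slc7a5 (-0.31) were instead lower than after cel-miR-67, and Ddit4 was lowest of the 7. Of the 19 members 9 were above 0 and 10 below.

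Antioxidant genes diverged within their list. Nqo1, a quinone reductase induced by NRF2, was at 20.0 RPKM after miR-199a-3p, 11.1 to 18.2 RPKM after the other 5 and 13.4 RPKM after cel-miR-67 (0.55). Glutathione reductase, Gsr, was at 13.9, 9.79 to 12.03 and 9.30 RPKM (0.54). Both were highest of the 7 after miR-199a-3p. Mitochondrial superoxide dismutase, Sod2, was instead lowest of the 7, at 14.98 RPKM after miR-199a-3p, 16.5 to 31.5 RPKM after the other 5 and 28.3 RPKM after cel-miR-67 (-0.87). The median over 26 genes was -0.15, and 0.20 when scaled to total reads. Cytosolic heat shock genes had a median of -0.07 over 16 genes, and 0.28 when scaled to total reads, and 0 of them passed 2-fold. The 7 small heat shock protein genes were all below 0 with a median of -0.35, inside the range of the other 5 (-0.50 to -0.13), which was 0.003 when scaled to total reads. Immediate early genes (median -0.23, and 0.06 scaled to total reads), genes of cell death (0.02), and genes of proteolysis and autophagy (-0.06, and 0.29 scaled to total reads) had 0 members past 2-fold.

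The median of the sugar metabolism genes was near 0 after miR-199a-3p and above 0 after every other miRNA. The median of 22 glucose uptake and glycolysis genes was -0.03 after miR-199a-3p and 0.13 to 0.35 after the other 5, and the -0.03 became 0.32 when scaled to total reads. Members at least 2-fold lower were Pfkp and Aldoc. Pfkp, the platelet-type phosphofructokinase, stood at 55.9 RPKM after miR-199a-3p, at 158 RPKM with miR-590-3p, 187 with miR-373-3p, 175 with miR-302d-3p, 129 with miR-33b* and 146 with miR-1825, and at 178 RPKM after cel-miR-67. It was lower than in every other library by over 2-fold (change -1.66, ratio 0.314, 0.301 to 0.326). Aldoc, an aldolase, was at 5.04, 5.24 to 22.5 and 14.6 RPKM (-1.37), with most of the other miRNA libraries close to miR-199a-3p. As deposited, 12 of the 22 were lowest of the 7, but this was 5 when scaled without mitochondrial reads and 1 when scaled to total reads. Hypoxia-induced genes had a median of -0.04 after miR-199a-3p, and 0.29 when scaled to total reads. The -0.04 lay inside the range of the other 5, from -0.08 with miR-302d-3p to 0.51 with miR-33b*. Of 27 nuclear genes for the respiratory chain and citric acid cycle all 27 were below 0, against 6207 of the 12330 measured genes. Their median was -0.46, and it was also below 0 after each of the other 5 (-0.40 with miR-1825 to -0.10 with miR-302d-3p). Of the 27, 15 were lowest of the 7, against 18.0% of all measured genes. When scaled to total reads 5 were lowest, against 5.06% of all genes. Cox6a2, the muscle form of a cytochrome oxidase subunit, was at 222, 246 to 378 and 515 RPKM in the usual order (-1.21), and Sdha, of succinate dehydrogenase, at 92.2, 114 to 191 and 203 RPKM (-1.13). Mitochondrially encoded reads were at their lowest share in the same library, as given above, and their part in this was not tested.

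The genes listed from general knowledge as reported miR-199a-3p targets included 1 of the 12 lowest genes, Cd151. Cd151, a tetraspanin of cell adhesion, stood at 19.0 RPKM after miR-199a-3p, at 94.3 RPKM with miR-590-3p, 99.3 with miR-373-3p, 97.1 with miR-302d-3p, 79.9 with miR-33b* and 91.1 with miR-1825, and at 118 RPKM after cel-miR-67. All 6 other libraries were over 4-fold above the miR-199a-3p library (change -2.57, ratio 0.161, 0.152 to 0.170). The row LOC100911730, with a change of -2.61, ran in fixed proportion to Cd151 and may share its reads. Clic5, an intracellular chloride channel protein, was at 2.06, 4.61 to 5.96 and 5.64 RPKM (-1.12). Itga3, an integrin chain that binds Cd151, was at 3.04, 3.78 to 7.79 and 6.56 RPKM (-0.91). Cfl2, the muscle cofilin that severs actin filaments, had a change of -1.06, but was at 74.1 RPKM after miR-199a-3p, at 69.2 RPKM with miR-373-3p, 58.2 RPKM with miR-302d-3p, and at 155 RPKM after cel-miR-67. The caveolin gene Cav2 (-0.88), the adhesion receptor Cd44 (-0.59), the kinase Taok1 (-0.49), Ptgs2 (-0.42), the ubiquitin ligase Btrc (-0.31) and the synaptic scaffold Homer1 (-0.28) were also below 0, and Mtor, a growth kinase, was at 0.26. Of the 11 measured, 3 were at least 2-fold lower and 5 lowest of the 7, against 1.52% and 18.0% of all measured genes. Their median was -0.59 (-0.26 when scaled to total reads), against -0.24 to 0.03 after the other 5.

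Genes outside the lists were also far below every other library. Inha, the inhibin alpha chain, stood at 3.23 RPKM after miR-199a-3p, at 25.1 RPKM with miR-590-3p, 33.4 with miR-373-3p, 27.9 with miR-302d-3p, 37.2 with miR-33b* and 32.8 with miR-1825, and at 11.0 RPKM after cel-miR-67. The other 5 miRNAs lay above cel-miR-67 by 1.13 to 1.67 on the log2 scale, and miR-199a-3p lay below it by a change of -1.50. Gpr146, a receptor gene, was at 2.93, 9.25 to 16.4 and 11.2 RPKM (-1.63), and Coa5, of cytochrome oxidase assembly, at 9.91, 25.9 to 32.7 and 33.9 RPKM (-1.68). Both overlap another gene in GRCr8, as do Ankrd13c, Mrps12, Ogn, Itgbl1, Elovl7 and Gstm7, and the strand setting is not given, so their reads may be shared. The sodium channel subunit gene Scn3b (-2.04) was lowest of the 7 at 4.78 RPKM after miR-199a-3p, against 6.03 to 19.2 RPKM after the other 5 and 22.8 RPKM after cel-miR-67, with miR-302d-3p next to it. Ankrd13c (-2.42) was at 4.32 RPKM after miR-199a-3p, and miR-1825 came near to it at 5.17 RPKM. AC133270.1, which carries no gene name here, was at 8.66, 21.97 to 33.8 and 32.3 RPKM (-1.78). Reg3b (-1.85), a secreted lectin, and Cemip (-1.77), which breaks down hyaluronan, were lower still after at least 1 other miRNA.

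Cell cycle genes were higher after miR-199a-3p and after the other miRNAs too. Ccnb1, the cyclin of mitotic entry, was at 44.6 RPKM after miR-199a-3p, 48.4 to 107 RPKM after the other 5 and 10.4 RPKM after cel-miR-67, so its change of 2.00 was the smallest of the 6. G2 and M phase genes had a median of 0.91 after miR-199a-3p against 0.73 to 1.65 after the other 5. S phase genes had a median of 0.41 after miR-199a-3p against 0.02 to 0.33 after the other 5. Highest of the 7 were 13 of 24, against 16.6% of all measured genes. Scaled to total reads 79.2% were highest, against 40.6% of all genes. Mcm2, a subunit of the replication helicase, was at 22.5 RPKM after miR-199a-3p, 12.7 to 17.9 RPKM after the other 5 and 12.9 RPKM after cel-miR-67 (0.76), while the thymidine kinase gene Tk1 was at 15.2, 10.7 to 17.0 and 5.27 RPKM (1.37).

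Further genes among the 12 highest were shared with other miRNAs to different degrees. Aif1l, an actin-binding protein, was at 96.1 RPKM after miR-199a-3p, 42.5 to 120 RPKM after the other 5 and 32.3 RPKM after cel-miR-67 (1.54). Bex4 was at 12.4, 2.72 to 29.1 and 2.72 RPKM in the usual order (1.85, from 120 and 22 reads). Depdc1 (1.497), the mitochondrial ribosome gene Mrps12 (1.39) and the ubiquitin-conjugating enzyme gene Ube2t (1.38) were also higher after at least 1 other miRNA than after miR-199a-3p. In contrast, Hmgb2, a DNA-bending chromatin protein, was highest of the 7 at 106.9 RPKM, against 58.0 to 78.9 RPKM after the other 5 and 40.1 RPKM after cel-miR-67 (1.39). The row Hmgb2l1 (1.42) ran in nearly fixed proportion to it and may share its reads. Ywhah, a phosphoprotein-binding adaptor, was at 61.9, 52.5 to 53.9 and 23.5 RPKM (1.36), and Tmem136 at 20.9, 7.99 to 19.04 and 7.33 RPKM (1.39).

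Other genes were above every other library. Cited1, a transcriptional coregulator, stood at 33.5 RPKM after miR-199a-3p, at 16.2 RPKM with miR-590-3p, 14.5 with miR-373-3p, 13.6 with miR-302d-3p, 9.04 with miR-33b* and 9.24 with miR-1825, and at 10.5 RPKM after cel-miR-67 (change 1.58, ratio 3.17, 2.88 to 3.50). Itgbl1, a secreted integrin-like protein, was at 13.2, 2.30 to 3.97 and 5.99 RPKM in the usual order, so that the other 5 lay below cel-miR-67 and miR-199a-3p above it (1.02). The proteoglycan gene Ogn (118, 38.9 to 71.3 and 65.4 RPKM), the lipoprotein lipase gene Lpl (69.6, 23.7 to 41.01 and 42.7 RPKM) and the cholinesterase gene Bche (18.6, 3.78 to 8.03 and 10.7 RPKM) were likewise above every other library. Pgm5, a protein of muscle cell junctions, was at 23.6, 6.59 to 12.9 and 12.2 RPKM, the polarity scaffold gene Mpp7 at 22.8, 7.45 to 13.7 and 11.8 RPKM, and LOC100911874, listed in more than 1 row, at 11.6, 4.48 to 5.89 and 6.50 RPKM. Elovl7, a fatty acid elongase, was at 15.4, 3.87 to 7.66 and 6.20 RPKM, and the glutathione transferase gene Gstm7 at 38.5, 15.6 to 20.3 and 16.03 RPKM.

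The median of calcium handling and ion channel genes was 0.08 after miR-199a-3p and -0.34 to -0.08 after the other 5. Of 23 members 13 were above 0 and 10 below, 3 of them at least 1.5-fold lower. Highest of the 7 were 9 (39.1%), against 16.6% of all measured genes. When scaled to total reads 12 of the 23 (52.2%) were highest, against 40.6% of all genes. Kcnj2, the inward rectifier channel that sets the resting potential, was at 11.9 RPKM after miR-199a-3p, 4.51 to 10.7 RPKM after the other 5 and 7.41 RPKM after cel-miR-67. Casq1, a calcium buffer of the sarcoplasmic reticulum, was lowest of the 7, at 78.7 RPKM after miR-199a-3p, 206 to 296 RPKM after the other 5 and 127 RPKM after cel-miR-67 (-0.69), so that miR-199a-3p lay below cel-miR-67 and the other 5 above it. Smooth muscle and pericyte markers had a median of 0.29 after miR-199a-3p and -0.32 to 0.09 after the other 5. Of these 12 markers 8 were highest of the 7, against 16.6% of all measured genes. The 12 markers summed to 3147 RPKM after miR-199a-3p, 2039 to 2869 RPKM after the other 5 and 2499 RPKM after cel-miR-67. Fibroblast markers summed to 1631, 1046 to 1355 and 1603 RPKM. The part of these cells in the higher matrix genes such as Ogn and Itgbl1 was not tested.

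**Figure D4:**
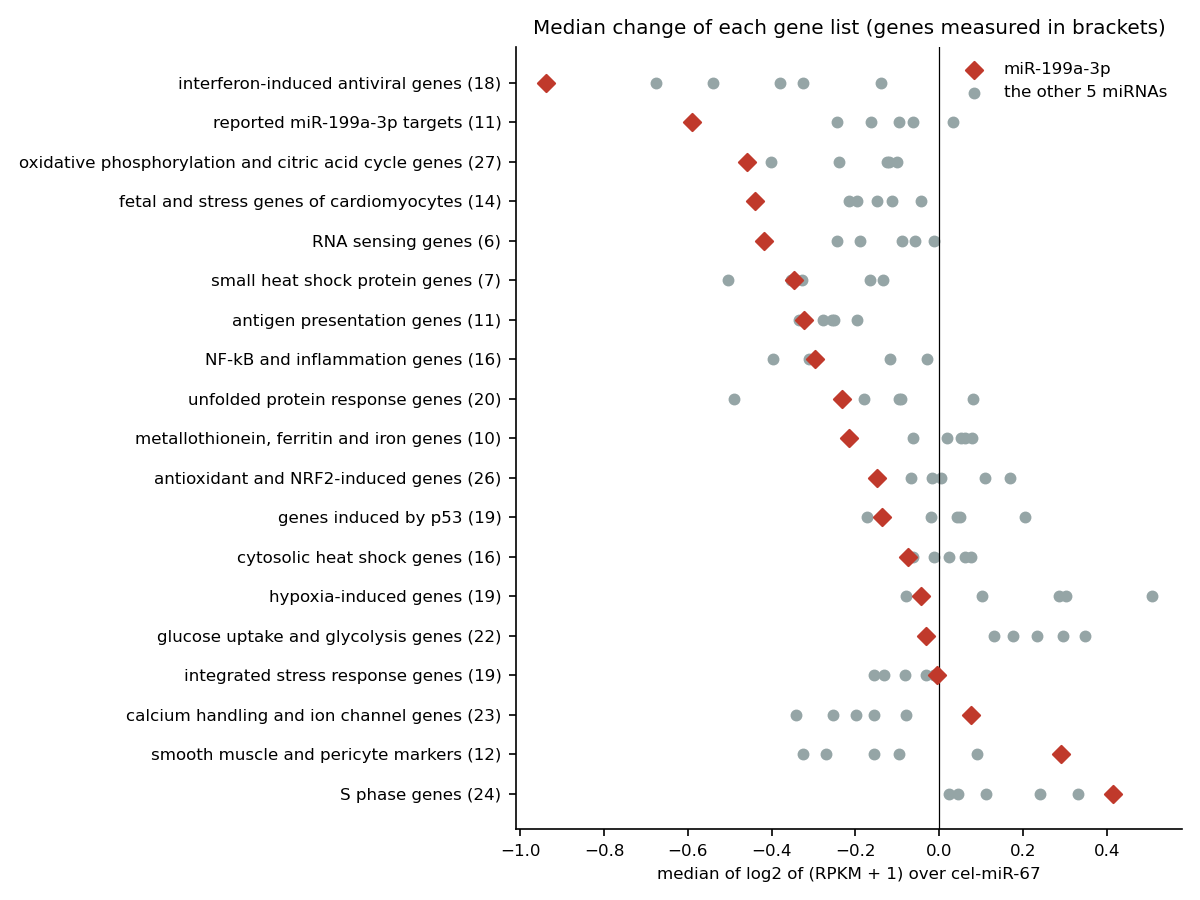
Median log2 change of 19 gene lists against cel-miR-67, with miR-199a-3p as red diamonds and each of the other 5 miRNAs as a grey point. The antiviral list lies farthest left at -0.94 for miR-199a-3p, and the S phase, smooth muscle and calcium lists lie to the right of all grey points.

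The share of members that were lowest of the 7 after miR-199a-3p was 70.0% for iron genes, 61.1% for antiviral genes, 55.6% for oxidative phosphorylation genes and 54.5% for glycolysis genes, against 18.0% of all measured genes. It was 3 of 6 for RNA sensing genes, 45.5% for reported targets, 42.9% for fetal and stress genes and 42.1% for genes induced by p53. With total reads as the scale, where the share of all genes was 5.06%, iron genes stood at 36.4%, antiviral genes at 9 of 20, oxidative phosphorylation genes at 18.5% and glycolysis genes at 4.55%. On that scale RNA sensing genes stood at 33.3%, reported targets at 36.4%, fetal and stress genes at 21.4% and genes induced by p53 at 21.1%. The share that were highest of the 7 was 66.7% for smooth muscle and pericyte markers, 54.2% for S phase genes and 42.1% for integrated stress response genes, against 16.6% of all measured genes. On the scale of total reads these were 83.3%, 79.2% and 57.9%, against 40.6% of all genes.

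**Figure D5:**
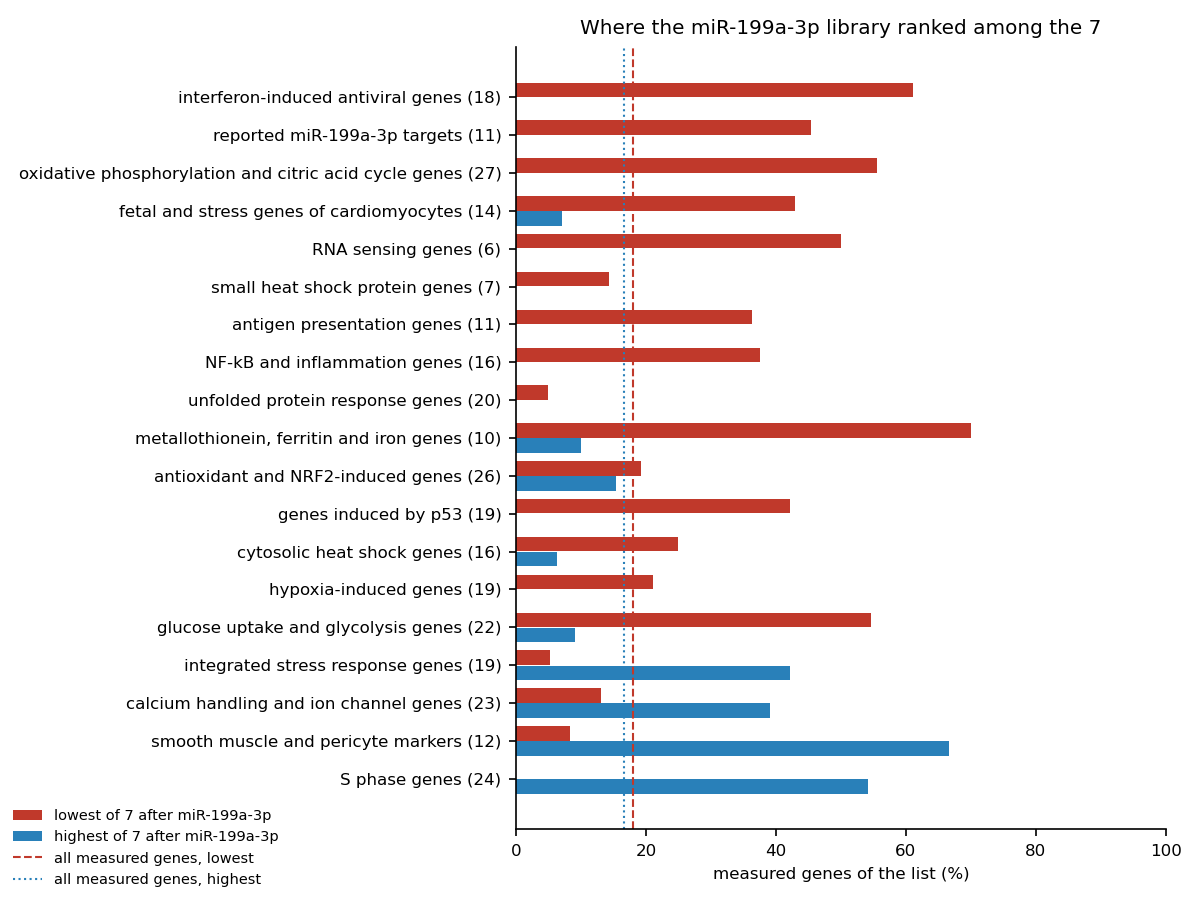
Share of the measured genes of each list that were lowest (red) or highest (blue) of the 7 libraries after miR-199a-3p, with the shares over all measured genes as vertical lines at 18.0% and 16.6%. Antiviral and iron genes reach 61.1% and 70.0% in red, and smooth muscle markers 66.7% in blue.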

How the data were processed

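The authors deposited RPKM per gene for each library and, in further columns, ratios to cel-miR-67, which were not used. Per the submitters' processing notes, which assign no roles, the tools were STAR 2.7 and edgeR and the build was Rnor_6.0. Strand setting, annotation and counter: not given in the sources used here. Read numbers behind the RPKM came out whole for 100% of genes, with a largest deviation of 0.00208 reads, and the recovery was tested on simulated data. Changes used a pseudocount of 1 RPKM. Analyses ran in Python 3.11.15 with scipy 1.17.1. The 38 gene lists held 674 distinct genes, 650 matched and 575 measured. Members and lists were chosen with earlier results of these data known. Genes named were the 12 highest and 12 lowest protein-coding genes averaging 5 RPKM or more, the 10 farthest above and below all other libraries, up to 6 members per list with the largest change, Nppa, Nppb, all reported targets, and the genes at each threshold. Bax, Cdkn1a, Cldn5, Gbp2, Ifnar2, Isg15, Isg20 and the 4 further genes with a promoter match were named after their values were seen. Promoter and miRNA sequences are from RefSeq (GRCr8). An item of the lists is not reported here.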

Additional observations from a re-analysis of the deposited data

How the results depend on the processing

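With a single library per miRNA the libraries cannot be left out in turn, and depth limits the genes of few reads, such as Hamp and Cxcl1. No paired analysis was possible because each group has 1 library and the labels give no replicate numbers. The planned search for seed matches was not run, since no transcript sequences were used here. The scaling without mitochondrial reads was chosen after seeing the data. The cause of the shifts below was not tested.

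The numbers of genes 2-fold higher, 2-fold lower, above all other libraries and below all other libraries were 255, 296, 82 and 211 with a pseudocount of 0.1, and 38, 71, 17 and 54 with a pseudocount of 5. Scaled to total reads they were 436, 94, 202 and 73. With a mean of at least 5 RPKM the first 3 were 76, 107 and 21, and among protein-coding genes 75 were 2-fold higher. The antiviral median was -0.49 with a pseudocount of 5, -0.55 with no filter, -0.54 scaled to total reads and -0.51 against the other 5 miRNA libraries, averaged. The S phase median was 0.28, with a pseudocount of 5 and against the other 5, and 0.73 scaled to total reads. Scaled to total reads, the median of all genes was 0.30. The list medians were then -0.035 for NF-kB, 0.11 for the unfolded protein response, 0.34 for the integrated stress response and 0.14 for p53. They were 0.38 for calcium handling, -0.10 for oxidative phosphorylation, 0.32 for glycolysis, -0.26 for reported targets and 0.62 for smooth muscle. Against the other 5 they were -0.070 for NF-kB, 0.32 for calcium handling, -0.25 for oxidative phosphorylation, -0.42 for glycolysis and -0.17 for G2 and M phase, where the sign turned. Without mitochondrial reads oxidative phosphorylation was at -0.40, and 5 glycolysis genes were lowest of the 7. Members lowest of the 7 were 7 antiviral and 1 NF-kB gene at a mean of at least 5 RPKM, where the share of all genes was not computed. Scaled to total reads they were 3 of 14 fetal, 3 of 17 NF-kB and 4 of 11 iron genes, against 5.06% of all genes. On that scale they were also 4 of 19 p53, 5 of 27 oxidative phosphorylation and 1 of 22 glycolysis genes.

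The 62 named genes past 2-fold could not change direction under another pseudocount, which keeps the sign. Nor could they under a scaling, where the largest shift was 0.357, so their kept direction is no check. Of the 62, 44 (pseudocount of 5), 48 (total reads) and 59 (without mitochondrial reads) were still past 2-fold. Against the other 5, 52 kept their direction and 22 were past 2-fold. Against the other 5 the sign turned for Reg3b (0.20), Ccnb1 (-0.49), Mrps12 (-0.57), Ube2t (-0.18), Xirp2 (0.027), Tcap (0.13), Pttg1 (-0.35), Ect2 (-0.15), Prc1 (-0.15) and Aldh1a2 (0.082).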
